A study of Mus musculus with 15 samples.

Results

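The baseline ileum was described from the 5 mice that received water by gavage, numbered 1 to 5 as in their labels, out of 15 mice in the series. These 5 samples were taken whole, with no selection on expression, and their values were described across the 17196 genes listed in any of them. All mice were female and 8 weeks old per the labels, which give the strain as C57BL/6, while the study's methods name the substrain C57BL/6JOlaHsd. The other 10 mice were gavaged with proanthocyanidins (PAC, polymers of plant flavanols) at 200 mg/kg on alternate days over 10 days, 5 with a preparation of low and 5 with one that the labels call of high molecular weight and the study's methods call medium in its mean degree of polymerization (high PAC here, after the labels), and are used here only as further groups in which the spread between mice could be measured. Values are in FPKM, the fragments of a gene scaled to the length of the gene and to the total of its library, so that levels can be compared between genes. The values are a description, with no p-value. Ranks and shares are over the listed genes, and neither the immunoglobulin heavy chain genes Igha, Ighm and Ighd nor the genes encoded by mitochondrial DNA, which were not analysed here, are in them. Spread is given as the SD over the 5 mice and as the coefficient of variation (CV), the SD as a percent of the mean.

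The ileum is the last part of the small intestine. Its epithelium is renewed from stem cells in the crypts, where Paneth cells release antimicrobial peptides, while the villi are covered by absorptive enterocytes with goblet cells among them. The ileum is also where bile acids are taken back up for return to the liver, and it holds lymphoid follicles, the Peyer's patches, beneath a specialised epithelium. A piece of whole ileum therefore carries RNA of epithelium, immune cells, muscle, nerves and any fat left attached. In such bulk tissue, fewer cells of a type and less RNA per cell cannot be told apart.

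The expected counts of the 5 mice summed to between 16402514 and 17903886. Between 16138 and 16364 genes were listed per mouse, and 15290 were listed in every water mouse. Summed over genes, FPKM was lowest in mouse 3 (502110) and highest in mouse 5 (563929). At a mean FPKM of at least 1 there were 12331 genes, at least 10 there were 6178, at least 100 there were 722 and at least 1000 there were 50. Across the genes averaging 10 FPKM or more, any 2 water mice had a Pearson correlation of log2(FPKM + 0.1) between 0.970 and 0.987, a description across genes that share their libraries.

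The most abundant transcripts among the listed genes were those of the alpha-defensins, the antimicrobial peptides of Paneth cells. Alpha-defensin genes took 13 of the 20 highest mean levels, and the first 10 ranks were all theirs. Defa17 led with 8666, 12136, 5492, 13061 and 13675 FPKM in mice 1 to 5, a mean of 10606 ± 3453 (SD, n = 5). Mouse 3 was the lowest for it and mouse 5 the highest, with a 2.49-fold range. Defa2 (9759 ± 2977), Defa24 (9508 ± 2885) and Defa20 (9485 ± 3011) followed. Defa17 was above Defa2 and Defa2 above Defa20 in 5 of 5 mice, while the place of Defa24 changed between mice. Without mouse 3 the CVs of these 4 genes were 17.3% to 18.8%, in place of 30.3% to 32.6%. Below them came Defa22, Defa21, Gm7849, Defa23, Defa33 and Defa32, with means from 7561 down to 5953 FPKM. The files attach the orthology term of alpha-defensins to 31 genes, which together held 18.3% ± 4.96 (SD, n = 5) of all FPKM, from 10.7% in the lowest mouse to 22.2% in the highest. Their share of the expected counts, which are not divided by length, was 3.42% ± 1.02.

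**Figure D1:**
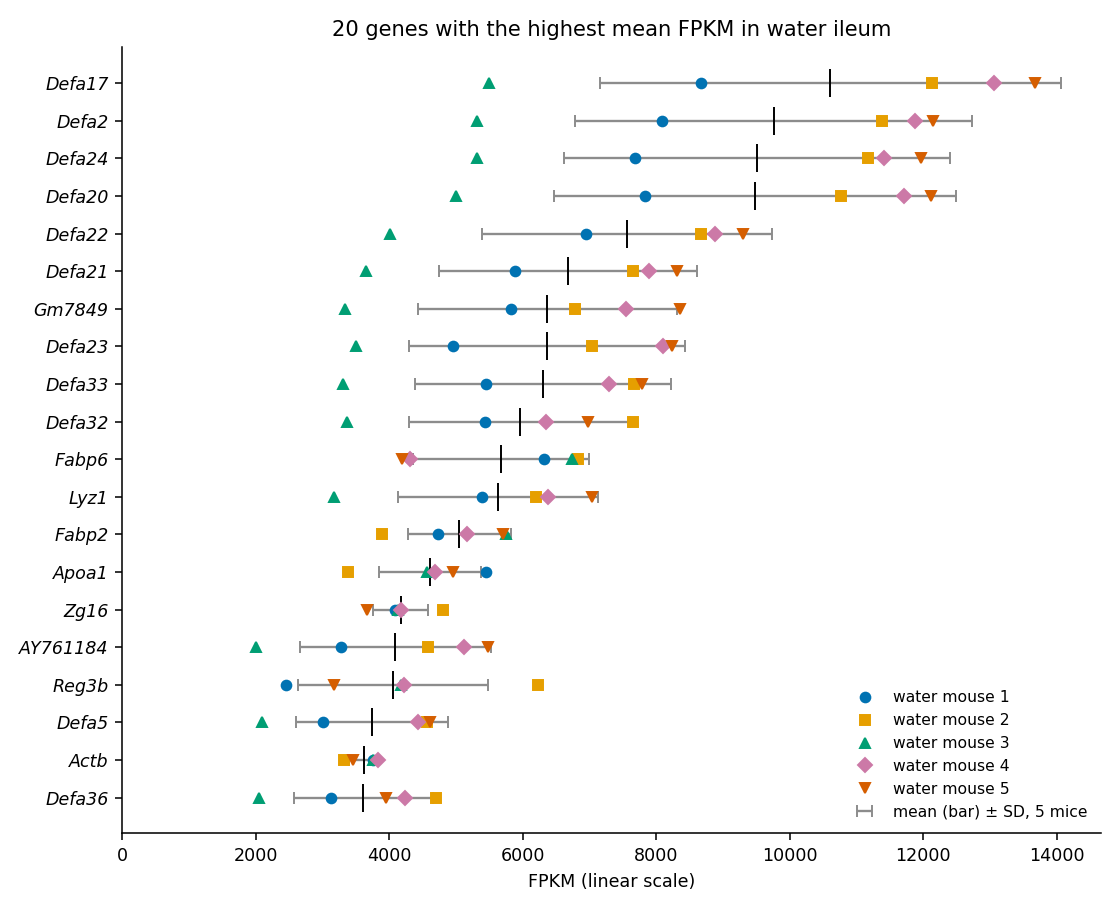
FPKM (linear x axis) of the 20 genes with the highest mean in the water group, with 1 symbol per mouse, the mean as a vertical bar and the SD over 5 mice as whiskers. Mouse 3 is the lowest of the 5 for all 13 alpha-defensin genes and for Lyz1, while Fabp6 is lowest in mice 4 and 5 and Actb lies between 3319 and 3835 in all 5.

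The alpha-defensin genes lie side by side on chromosome 8, where the GENCODE transcripts of the family run from chr8:21025545 to 21735471 (GRCm38), and they resemble each other closely. Of the 31 genes, 28 had a GENCODE transcript. Between the 13 family members in the top 20, transcripts of 376 to 503 bases were 69.8% to 99.8% identical over aligned bases (median 85.3% of 78 pairs). The reads of this study were 100 bases long. Cut into windows of 100 bases, the transcripts of these 13 genes had a median of 90.6% of their windows in common with another member, from 0 for Defa24 and AY761184 to 100 for Defa2, Defa33 and Gm7849. The windows treat each read singly, while the reads were paired. How reads were divided between genes with shared windows is set by the counting. Single values of those members are therefore uncertain, while the sum of the family is less so. The coding part of the second exon, which encodes the end of the peptide, shows how close some members are and how far others differ. It is given here from GENCODE for Defa17 (chr8:21656532-21656638), Defa23 (chr8:21055812-21055918), Defa31 (chr8:21192345-21192451), Defa24 (chr8:21735268-21735374), Defa21 (chr8:21026314-21026420) and Defa22 (chr8:21163046-21163152), all on the plus strand of GRCm38, with bases that differ from Defa17 at the same position in capitals:

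Defa17: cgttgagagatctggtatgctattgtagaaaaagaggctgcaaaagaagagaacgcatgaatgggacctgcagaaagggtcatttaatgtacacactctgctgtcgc
Defa23: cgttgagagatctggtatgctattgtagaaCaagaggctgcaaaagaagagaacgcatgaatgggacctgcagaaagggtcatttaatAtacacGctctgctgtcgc
Defa31: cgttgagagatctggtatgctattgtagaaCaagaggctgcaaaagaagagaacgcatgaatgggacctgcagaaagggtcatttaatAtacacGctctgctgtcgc
Defa24: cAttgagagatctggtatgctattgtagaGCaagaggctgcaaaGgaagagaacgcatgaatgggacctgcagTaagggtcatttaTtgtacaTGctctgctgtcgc
Defa21: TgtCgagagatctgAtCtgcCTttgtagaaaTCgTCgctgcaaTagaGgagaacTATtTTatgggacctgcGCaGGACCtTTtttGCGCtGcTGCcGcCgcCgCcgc
Defa22: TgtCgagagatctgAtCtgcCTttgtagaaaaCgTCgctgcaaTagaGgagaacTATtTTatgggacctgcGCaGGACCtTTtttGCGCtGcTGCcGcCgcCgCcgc

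Defa23 and Defa31 each differed from Defa17 at 3 of these 107 bases and Defa24 at 8, while Defa21 differed at 38 and Defa22 at 37. All 278 windows of the Defa31 transcript were also found in another member, and its aligned bases were identical to Defa23. Defa31 was listed at 93.9, 386, 0, 195 and 190 FPKM in mice 1 to 5, against 4951, 7031, 3501, 8092 and 8241 for Defa23. Among the water mice, Defa31 was thus listed at 0 in mouse 3 alone, the mouse in which the whole family was lowest. In the low PAC mice the lowest value of Defa31 was 0.01 FPKM. The family summed to at least 89621 FPKM in those mice, against 53608 in water mouse 3. All 389 windows of Gm7849 likewise lay in another member, the closest being Gm7861, yet Gm7849 had a CV of 30.4% and Gm7861 one of 64.2%. Without mouse 3 these were 15.2% and 46.1%.

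Other secreted defence genes stood close behind the defensins. Lyz1, the lysozyme of Paneth cells, had a mean of 5633 ± 1498 FPKM. Of the antibacterial C-type lectins, Reg3b reached 4050 ± 1422 and Reg3g 1947 ± 870. Itln1, an intelectin that binds microbial glycans, reached 2049 ± 584, and Ang4, a Paneth cell ribonuclease, 1458 ± 537. Without mouse 3 the CV was 10.8% in place of 26.6% for Lyz1, 13.02% in place of 28.5% for Itln1 and 19.8% in place of 36.8% for Ang4. Counted as a list of 33 Paneth cell genes, 19 members were among the 100 most abundant genes and held 18.4% ± 4.93 of all FPKM with the rest of the list.

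Genes of nutrient and bile acid uptake were also abundant. Fabp6, the ileal bile acid binding protein, had 6321, 6831, 6739, 4307 and 4196 FPKM in mice 1 to 5 (mean 5679 ± 1318), lower in mice 4 and 5 than in any of the other 3. Fabp2, the intestinal fatty acid binding protein, had a mean of 5046 ± 770, and Apoa1, an apolipoprotein of high-density particles, one of 4609 ± 765. Without mouse 2, the lowest for both, their CVs were 8.98% and 7.97% in place of 15.3% and 16.6%. Fabp6 was the highest of the 3 in mice 1 to 3 and the lowest in mice 4 and 5, so their order was not the same in every mouse. The peptidases of the brush border held 1.61% ± 0.23 of FPKM, led by Anpep (3431 ± 378) and Naaladl1 (1231 ± 147). Of the genes of sugar handling, Sis, the sucrase-isomaltase, had a mean of 769 ± 143. In counts, without division by length, Anpep was the most abundant gene of all, with a mean of 222654 expected counts, and only 8 of the 20 genes highest in FPKM were among the 20 highest in counts.

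Goblet cell genes held 2.36% ± 0.20 of FPKM, with 7 of their 11 members in the top 100. Zg16, a lectin of the mucus layer, led with 4085, 4810, 4127, 4175 and 3665 FPKM (mean 4172 ± 410), and Tff3, a trefoil peptide that protects the epithelium, followed with 2256 ± 206. Zg16 had a CV of 9.84%, against 32.6% for Defa17. Without mouse 3 these were 11.3% and 18.8%, and without mouse 2 that of Zg16 was 5.86%. Muc2, the main gel-forming mucin, had a mean of 603 ± 122.

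Of the structural and housekeeping genes, the cytosolic ribosomal proteins held more of the FPKM than any list but the Paneth cell genes and their alpha-defensins. Their 85 members summed to 7.50% ± 0.58 of FPKM, with 18 members in the top 100 and Rps26 (1500 ± 117) and Rpl41 (1416 ± 99.0) highest. Brush border and cytoskeletal genes held 3.27% ± 0.31, with Actb (3624 ± 225), Krt8 (1655 ± 138) and Krt19 (1297 ± 101) in front. Nuclear genes of the respiratory chain and ATP synthase held 2.40% ± 0.15 and translation factors 1.85% ± 0.10, the latter led by Eef1a1 (3025 ± 126) and Tpt1 (2012 ± 119). The CV of Rps26 was 1.19% without mouse 1, in place of 7.83%, that of Krt19 4.95% without mouse 5, in place of 7.80%, and that of Eef1a1 2.26% without mouse 3, in place of 4.17%. In all, the 20 most abundant genes held 22.5% ± 4.20 of FPKM, the first 100 held 39.2% ± 3.89 and the first 1000 held 69.7% ± 1.74. The lists covered 78 of the first 100 genes. Among the 22 outside them were Crip1 (2373 ± 188), Selenop (2237 ± 336) and Lypd8 (1545 ± 119), the last a protein that holds flagellated bacteria off the colonic epithelium; these 3 were chosen after their values were seen. Without mouse 3 the CV of Selenop was 8.29% in place of 15.02%, and without mouse 5 that of Lypd8 was 2.83% in place of 7.70%.

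The defining genes of the ileum were present. Slc10a2, the apical bile acid transporter of the distal ileum, was listed at 94.8 to 324 FPKM and Slc51a, which exports bile acids across the basal membrane, at 436 to 734. Markers of stomach summed to at most 0.88 FPKM in any mouse, and Atp4a, a subunit of the gastric proton pump, was listed at 0.02 to 0.03. Those of exocrine pancreas summed to 16.1 to 20.2, nearly all of it Rnase1, a ribonuclease also made by other tissues, while Cpa1 reached 0.04 at most. The colon list summed to between 213 and 284 FPKM, with 3 of 10 listed members at a mean of at least 10. These were Car4, a carbonic anhydrase (112 ± 23.3), Slc26a3, a chloride and bicarbonate exchanger (65.6 ± 2.36), and Prdx6, a peroxiredoxin (55.7 ± 5.91), which the small intestine also expresses. Car1, another carbonic anhydrase of the colon, was listed at 0.1 in 1 mouse and at 0 in the other 4. Of the strain genes, Nnt, which a related C57BL/6 substrain lacks, was listed at 26.6 to 31.6 FPKM. Other members of that list were not analysed here.

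Between the 5 mice, most genes differed little. Over the 6178 genes that averaged 10 FPKM or more, the median CV was 7.58%, with quartiles of 5.39% and 10.9%. Counting error alone, taken as 1 over the square root of the mean expected count, had a median of 2.88%. The CV was under 5% in 1257 genes (20.3%) and at least 50% in 60. The most variable set, 618 genes or 10% of those measured, began at a CV of 16.9%, and the least variable set, also 10%, ended at 3.82%. The genes next outside were at 16.8% and 3.83%, so neither limit marks a gap. Over all 6178 genes, the lowest value fell in mice 1 to 5 in 14.2%, 24.6%, 13.7%, 28.1% and 19.3% of genes and the highest in 24.3%, 18%, 25.5%, 10.5% and 21.7%, against which the counts of members below can be read.

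**Figure D2:**
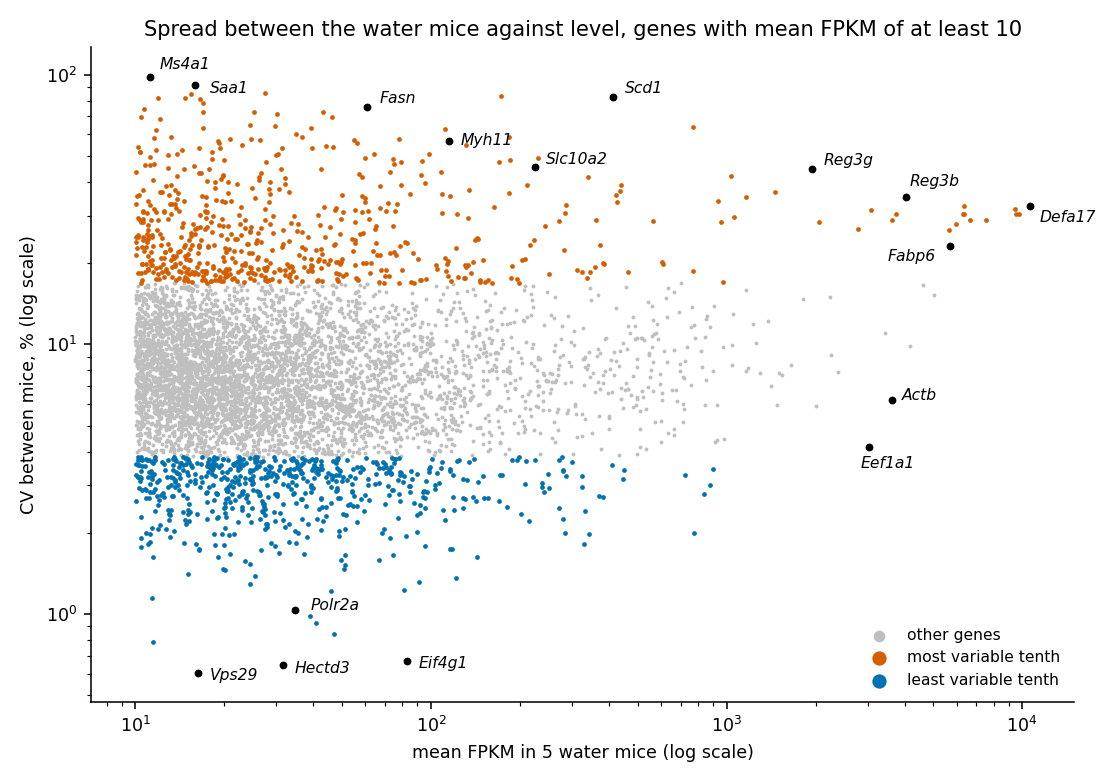
CV between the 5 water mice (log y axis, percent) against the mean FPKM (log x axis) of 6178 genes averaging 10 or more, with the most variable set in orange and the least variable set in blue. Defa17, Reg3b and Reg3g lie at the upper right, well above Actb and Eef1a1, and Ms4a1 has the highest CV of all at 97.8%.

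Gene lists of cell types and functions, chosen with earlier results of these data known, fell on both sides. Of 56 lists, 44 had at least 3 members with a mean FPKM of at least 10. In 18 of these, at least 50% of those members were in the most variable set, where 10% of all genes lie. Every such member was in it for the lists of Paneth cells (28 of 28), smooth muscle (15 of 15), the proximal small intestine (8 of 8), fat (6 of 6), follicular B cells (5 of 5), T cells (4 of 4) and red cells (3 of 3). In 7 lists no member was in it. These 7 were the respiratory chain and ATP synthase, translation factors, glycolysis, the brush border cytoskeleton, common reference genes, endothelium and the M cell epithelium. Of the 28 Paneth cell members, most are alpha-defensin genes, many with shared sequence. The lists left 418 of the 618 most variable genes without a group.

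**Figure D3:**
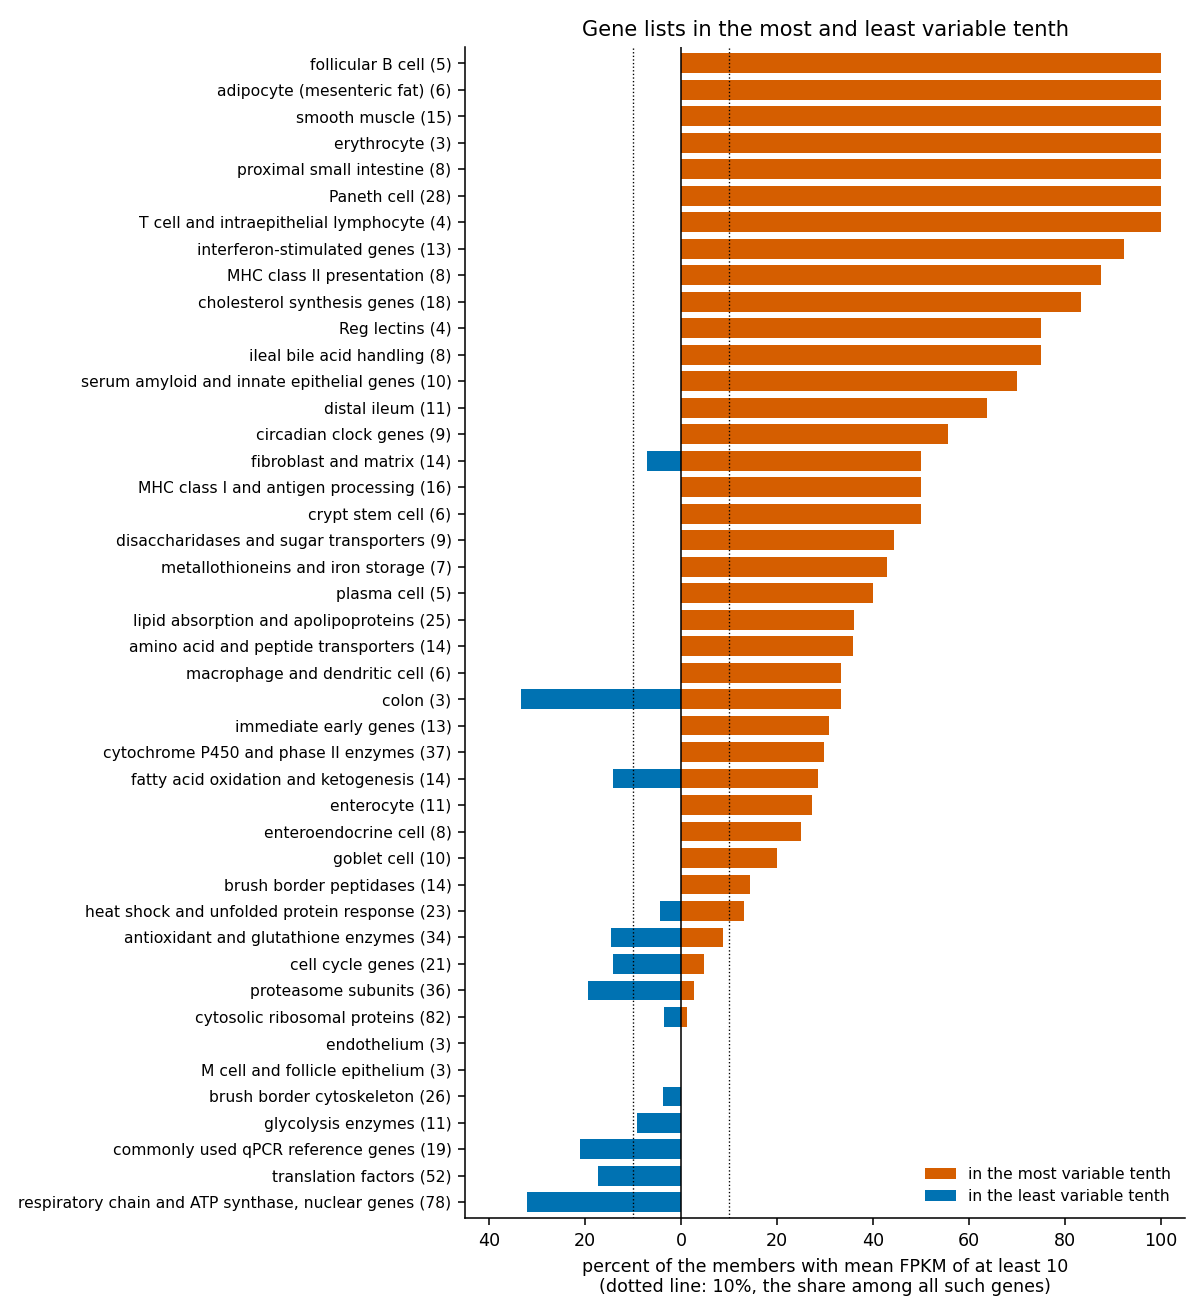
Percent of the members of each gene list (number with mean FPKM of at least 10 in brackets) that were in the most variable set (orange, to the right) and the least variable set (blue, to the left) of all genes, with 10% dotted. The lists of follicular B cells, fat, smooth muscle, red cells, the proximal small intestine, Paneth cells and T cells are at 100%, other immune lists such as macrophages (33.3%) and plasma cells (40%) lie lower, and respiration, translation and reference genes are at 0.

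The strongest spread of all was in genes of B cells and lymphoid follicles. Ms4a1, which encodes the B cell antigen CD20, was listed at 11.3, 0.34, 19.6, 0.34 and 24.3 FPKM in mice 1 to 5. Mice 2 and 4 were thus near 0 and the other 3 well above, with a CV of 97.8%, the highest of the 6178 genes. Cd79a and Cd79b, the signalling chains of the B cell receptor, were likewise low in mice 2 and 4, with CVs of 85.8% and 84.8%. Cd37, a tetraspanin of B cells, H2-DMb2, a chain of the complex that loads MHC class II, and Cxcl13, the chemokine that draws B cells into follicles, had CVs of 81.6%, 81.8% and 78.4%. Hvcn1, a proton channel of B cells, and Clu, clusterin, were also among the 15 most variable genes and were again lowest in mice 2 and 4. Summed over the 16 listed B cell genes, the level was 142, 19.3, 236, 20.3 and 269 FPKM, a 14-fold range. Each of the 8 genes named had at least 146 expected counts on average, with counting CVs of at most 8.27%. Without mouse 3 only 3 members averaged 10 FPKM, and all 3 stayed in the set.

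T cell and MHC class II genes varied over a smaller range. The T cell and intraepithelial lymphocyte genes summed to 178, 116, 239, 151 and 175 FPKM, highest in mouse 3 and lowest in mouse 2, as was each of the 4 measured members. The class II genes summed to 2204, 1429, 3055, 1758 and 2099, led by Cd74, the invariant chain (mean 954 ± 272). Without mouse 3 the CV of this sum was 18.8% in place of 28.9%. Of the 8 class II members with a mean of at least 10, 7 had their highest value in mouse 3. Likewise 7 were in the most variable set, with a median CV of 29.7% over the 8. Interferon-stimulated genes had 12 of 13 members there and a sum of 434, 318, 574, 417 and 377, with Ifit1, which binds viral RNA, the most variable at 46.0%. Without mouse 3, 7 of 12 interferon-stimulated members and 2 of 3 T cell members stayed in that set. The class I genes had 8 of 16 members there, and 5 of 16 without mouse 2 or without mouse 3; all 16 were lowest in mouse 2. The part of the B cell genes in these lists was not tested.

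Smooth muscle genes were low in other mice. Myh11, the myosin heavy chain of smooth muscle, was listed at 46.3, 156, 42.0, 168 and 165 FPKM in mice 1 to 5, so that mice 1 and 3 were low and the other 3 close together (CV 56.5%). Actg2, the enteric gamma-actin, had 56.6, 179, 48.8, 185 and 187, and Acta2 had 89.9, 213, 75.5, 232 and 241. The summed level of the 15 genes was 872, 1916, 784, 1990 and 2021 FPKM. Genes of enteric neurons, which lie between the muscle layers, summed to 27.1, 61.7, 26.1, 60.6 and 62.5, again low in mice 1 and 3. Vip, a neuropeptide of these neurons, was their only member with a mean of at least 10 (CV 30.9%). Genes of endothelium, which runs through all layers, stayed between 93.4 and 116, with 3 members at a mean of at least 10. Those of fibroblasts and matrix summed to 479, 579, 429, 673 and 578, lowest in mice 3 and 1. Of their 14 members, 7 were in the most variable set and 10 were lowest in mouse 3. The part of each tissue layer in these values was not tested.

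Paneth cell genes were lowest in mouse 3. All 28 members with a mean FPKM of at least 10 had their lowest value there. Most of these 28 are alpha-defensin genes, many with shared sequence, so those are not separate observations. The list summed to 85382 FPKM in mouse 1, 118170 in mouse 2, 54227 in mouse 3, 120998 in mouse 4 and 125308 in mouse 5, so that the 2 mice low in muscle genes were also the 2 lowest here. The part of the muscle genes in this was not tested. The median CV of the members was 30.6%, from 24.3% for Mmp7, the protease that activates the defensins (12.2% without mouse 3), to 82.9% for Defa31. Lyz1 had 5391, 6196, 3166, 6372 and 7037 FPKM, and Itln1 1841, 2484, 1112, 2401 and 2406. Without mouse 3, the CV of the summed level was 16.3% in place of 30.2%, and 18 of the 28 members were in the most variable set. Stem cell genes had a narrower sum, from 313 FPKM in mouse 3 to 428 in mouse 5, led by Olfm4 (219 ± 32.1), a marker of crypt base cells.

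**Figure D4:**
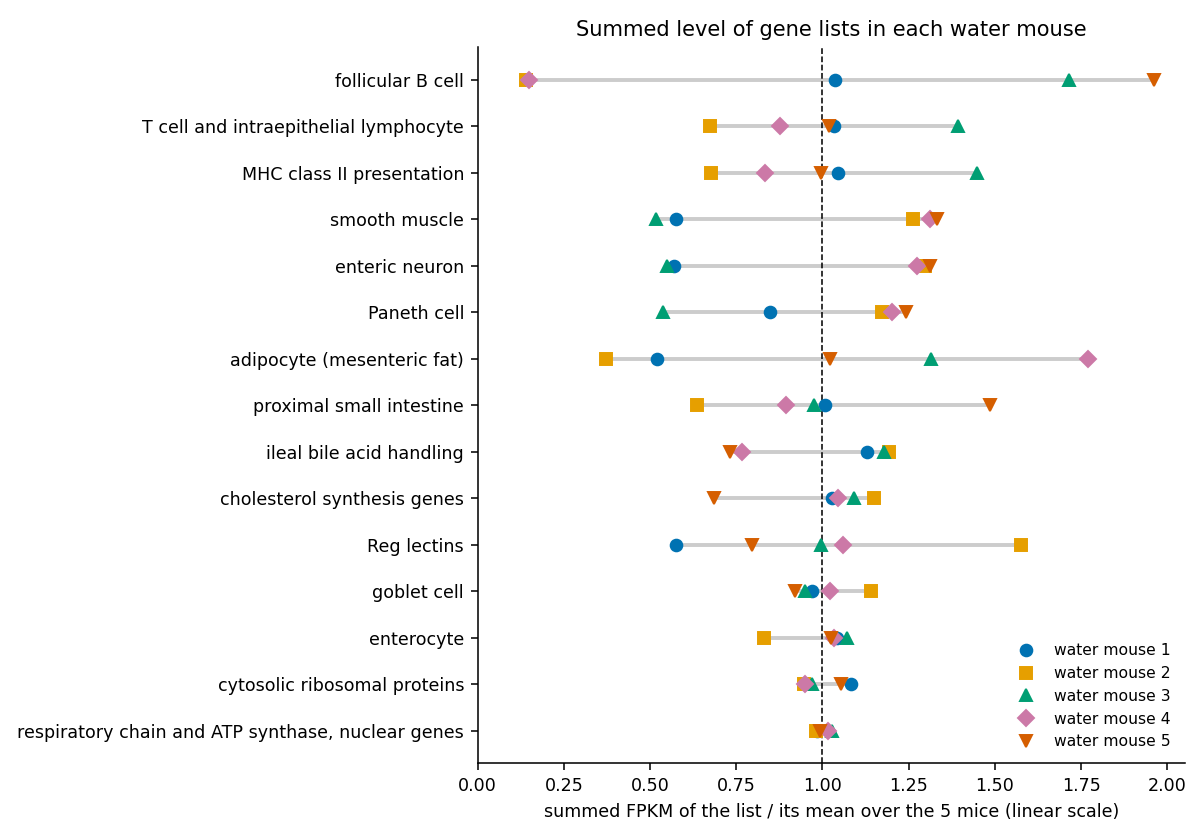
Summed FPKM of 15 gene lists in each water mouse, divided by the mean of the 5 mice (linear x axis, dashed line at 1), with 1 symbol per mouse and a grey bar over the range. Mice 2 and 4 lie far below the mean for follicular B cells, mice 1 and 3 are low for smooth muscle and enteric neurons, and all 5 mice lie close together for ribosomal and respiratory chain genes.

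Genes of fat tissue and fat synthesis followed a different order again. Adipoq, the hormone adiponectin, was listed at 11.6, 10.8, 36.1, 63.2 and 28.7 FPKM, and Fabp4, the fatty acid binding protein of adipocytes, at 101, 71.1, 283, 311 and 153. All 6 measured members of the fat list were lowest in mouse 2 and highest in mouse 4, and the list summed to 245, 175, 619, 834 and 481. Scd1, which desaturates fatty acids, had 83.9, 171, 447, 957 and 405 FPKM, a CV of 82.5% that was the sixth highest, and Fasn, the fatty acid synthase, 16.7, 28.2, 54.5, 134 and 71.3. For both enzymes mouse 1 was the lowest and mouse 4 the highest. They are also used by epithelium, and how much of their RNA came from fat was not tested.

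Genes known to differ along the small intestine also varied. Of the 8 measured bile acid genes, 6 had their lowest value in mouse 4 or mouse 5, the lowest mice of 28.1% and 19.3% of all genes. Slc10a2 had 264, 324, 300, 139 and 94.8 FPKM and Fgf15, the hormone that signals bile acid return to the liver, 159, 133, 144, 62.7 and 82.8. Nr1h4, which encodes the bile acid receptor FXR, and Slc51a and Slc51b were likewise lowest in these 2 mice, with CVs of 23.8%, 19.8% and 20.1%. The CV of Nr1h4 was 15.6% without mouse 4 and that of Slc51a 12.6% without mouse 5. The other 2 members, the export pumps Abcc2 and Abcc3, were lowest in mouse 3 (37.3) and mouse 1 (11.2), and Abcc2 was highest in mouse 4 (48.4). The bile acid list summed to 8085, 8532, 8438, 5480 and 5226 FPKM, most of it Fabp6, with a mean of 5679 beside 7152 for the list. Of its 8 members, 6 were in the most variable set. Genes known to be higher in the proximal small intestine had 8 of 8 members there, Cyp3a11 included. Lct, the lactase, was listed at 38.3, 15.2, 54.8, 80.5 and 92.7, highest in mice 4 and 5. The proximal list as a whole was highest in mouse 5 (1286) and lowest in mouse 2 (551), with mouse 4 (773) below mice 1 (873) and 3 (845). Apoa4, an apolipoprotein of absorbed fat, led it with 534, 213, 380, 387 and 604.

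Saa1 and 2 of the 4 measured Reg lectins were highest in mouse 2. Reg3b was listed at 2456, 6224, 4177, 4226 and 3169 FPKM and Reg3g at 940, 3292, 1816, 2131 and 1556, both lowest in mouse 1 and highest in mouse 2. Saa1, serum amyloid A1, had 2.26, 40.1, 15.2, 7.74 and 13.98, with the same lowest and highest mouse and a CV of 91.6%, second of all genes. Nos2, the inducible nitric oxide synthase, had 47.9, 32.9, 70.3, 78.1 and 62.5, with mouse 2 the lowest. The list of serum amyloid and other innate epithelial genes had 7 of 10 members in the most variable set, and 3 of 10 without mouse 1. Of the Reg lectins, 3 of 4 were in it, and Reg3a was not (CV 15.6%). Reg3a was highest in mouse 3 (67.9) and Reg4 in mouse 5 (85.4).

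In cholesterol synthesis, a single mouse set the spread. Of 18 members, 15 were in the most variable set, and 17 had their lowest value in mouse 5. Hmgcs1, which makes HMG-CoA, had 152, 166, 157, 147 and 80.4 FPKM, and Fdft1, squalene synthase, 32.3, 33.5, 33.1, 31.0 and 15.8, so that mouse 5 lay apart from 4 mice that were close together. The list summed to 938, 1050, 997, 952 and 626. Without mouse 5, 2 of 18 members remained in the most variable set, and the CV of the sum was 5.11% in place of 18.2%. Sc5d (CV 9.30%, and 5.10% without mouse 5) and Dhcr7 (11.7%), enzymes of the last steps, were outside it.

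Genes of the circadian clock differed between mice as well. Dbp, a clock output factor, was listed at 11.3, 15.5, 13.7, 25.9 and 5.34 FPKM, highest in mouse 4 and lowest in mouse 5 (CV 52.4%). Tef, its relative, had the same extremes, at 28.5 and 11.6, as did Per2 (12.01 and 5.21) and Per3 (6.96 and 2.30). Arntl, which encodes the activator BMAL1, had 12.1, 11.6, 9.47, 5.96 and 13.8, with the lowest value in mouse 4 and the highest in mouse 5. Npas2, a partner of BMAL1, was lowest in mouse 4 as well (7.10), and so was Nfil3 (1.96). Clock (CV 6.51%) and Nr1d1 (8.69%), a repressor of Arntl, varied little, and Bhlhe40 (15.8%) and Nr1d2 (17.8%) lay in between. Without mouse 2 the CV of Clock was 2.97%, and without mouse 5 those of Nr1d1 and Nr1d2 were 4.92% and 11.5%. Of the 9 clock genes with a mean of at least 10, 5 were in the most variable set, and without mouse 5 it was 3 of 8. The 10 clock genes under that level were Per1, Per2, Per3, Cry1, Cry2, Nfil3, Hlf, Ciart, Rora and Bhlhe41, with means from 0.74 to 9.38 FPKM. The labels used here give no time of day for the mice.

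A few genes stood above the rest in 1 mouse. Cyp3a11, a cytochrome P450 that oxidises drugs and bile acids, had 16.4, 16.5, 21.0, 14.5 and 57.8 FPKM, and Gstm3, a glutathione transferase, 11.1, 10.3, 9.04, 15.6 and 38.4. Without mouse 5 their CVs were 16.2% and 24.9% in place of 72.7% and 72.6%. Dnase1, which digests DNA, was also highest in mouse 5, at 6.4, 3.74, 12.1, 24.7 and 35.8, but over a graded range. In all, the highest value of a gene of the most variable set fell in mouse 5 in 27.5% of the 618 genes and in mouse 4 in 25.6%, beside 21.7% and 10.5% of all genes. The lowest fell in mouse 2 in 29.3% and in mouse 3 in 22.3%, beside 24.6% and 13.7% of all genes. Red cell genes, led by Hbb-bs, Hba-a1 and Hba-a2, summed to between 30.9 and 77.1 FPKM; the Hba copies are near-identical and their division is uncertain.

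Vps29, a part of the retromer that sorts membrane proteins, was listed at 16.4, 16.1, 16.3, 16.2 and 16.4 FPKM, a CV of 0.607% that was the lowest of the 6178 genes. Hectd3, a ubiquitin ligase, had 31.4, 31.8, 31.3, 31.4 and 31.8 (0.645%) and Eif4g1, the scaffold of translation initiation, 82.9, 83.9, 82.5, 83.4 and 83.1 (0.673%). Among the 15 least variable genes were also Gfm2, Dnajc8, Cfdp1, Rsrc2, Polr2a, Ndufv1, Eif3c, Usp1, Uba1, Pglyrp1 and Ppp1r37, the last at 1.38%. Among them are Polr2a, the largest subunit of RNA polymerase II, Ndufv1, a core subunit of complex I, Eif3c, of an initiation factor, and Uba1, the ubiquitin activating enzyme. The CV of 14 of these 15 was under the counting CV, and Uba1 was the exception (1.31% against 1.26%). Vps29 had 759 expected counts on average, for a counting CV of 3.63%, and 266 of the 618 least variable genes had a CV at or under their counting CV, against 404 of all 6178 genes (6.54%). The order among these 15 thus lies within the counting error.

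Respiratory chain and ATP synthase genes were the list with most members at this end. Of 78, 25 were in the least variable set and none in the most variable one, with a median CV of 4.84%. Atp5b, the catalytic subunit of ATP synthase, had 721 ± 23.7 FPKM, with a CV of 1.99% without mouse 1 in place of 3.28%, and the list summed to between 12717 and 13325 FPKM. Translation factors had 9 of 52 in the least variable set and the proteasome 7 of 36, where 10% of all genes lie. Of the proteasome genes, the immunoproteasome subunit Psmb8 was the exception at a CV of 22.6% (8.19% without mouse 3). Ribosomal proteins had 3 of 82 in the least variable set, under that share, and 1 in the most variable one. Their median CV was 6.99%.

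Genes often used as references in quantitative PCR had a median CV of 5.70% over 19 members, with 4 in the least variable set (Ppia, Ppib, Sdha and Polr2a) and none in the most variable. Actb was listed at 3759, 3319, 3755, 3835 and 3454 FPKM (CV 6.20%) and Gapdh at a mean of 912 ± 39.7 (4.36%). Ppia, a prolyl isomerase, had a CV of 2.78%, Ppib one of 2.63% and Sdha, of the succinate dehydrogenase, one of 2.69%. Eef2, Rplp0, Rpl13a, Ywhaz, Pgk1, Tubb5, Hprt, Tbp and Gusb lay between, from 5.16% for Ywhaz to 9.01% for Rpl13a. The widest were B2m, the light chain of MHC class I, at 14.7%, and Tfrc, the transferrin receptor, at 11.1%. Without mouse 1 the CV of Ppia was 1.61% and that of Tfrc 6.12%, without mouse 3 those of Ppib and Eef2 were 1.75% and 4.11%, and without mouse 5 that of Tubb5 was 2.05%, in place of 5.54%. B2m was lowest in mouse 2 and highest in mouse 3, as the sum of the class II genes was.

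Whether the same genes vary between other mice was looked at in the 2 PAC groups, of 5 mice each, which share no sample with the water group. Of the 618 most variable genes, 321 (51.9%) were also in the most variable set of the low PAC mice and 256 (41.4%) in that of the high PAC mice, against 10% of all genes, and 193 (31.2%) in both. A further 37.9% were in neither. One high PAC library, that of mouse 3, stood apart, with an FPKM sum of 677075, and without it 54.2% were shared. Of the 618 least variable genes, 134 (21.7%) were in the least variable set of the low and 101 (16.3%) in that of the high PAC mice.

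Ms4a1 had a CV of 131% in the low and 134% in the high PAC mice, and the follicular B cell sum ran from 20.3 to 132 FPKM in the former and from 16.45 to 386 in the latter. Fat genes had a summed CV of 43.6% and 68.6% there, against 57.4% with water, and of 26.8% in the low PAC mice without mouse 2. The Reg lectins had summed CVs of 130% and 68.01%, against 37.3% with water, but without low PAC mouse 2 the first was 35.02%. For smooth muscle genes the summed CV was 41.6% with water and 15.5% and 13.8% with low and high PAC. Leaving out 1 mouse gave 32.6% to 48.1% with water, 6.29% to 17.9% with low PAC and 8.36% to 15.9% with high PAC. For Paneth cell genes it was 30.2%, 17.1% and 14.6%. Without water mouse 3 the first was 16.3%, under that of the low PAC mice, and without high PAC mouse 3 the last was 6.54%. These values without a PAC mouse were computed after seeing the data. Only 16 of the 28 Paneth members were in the most variable set with low PAC, and 3 with high PAC. The 15 least variable genes, for which a higher CV in other mice follows from their choice as the lowest with water, had CVs of 3.35% (Eif3c) to 22.3% (Pglyrp1) with low and 4.06% (Eif3c) to 29.6% (Pglyrp1) with high PAC. Pglyrp1 is a peptidoglycan recognition protein. The median CV of all 6178 genes was 9.46% and 11.8%, the latter 7.01% without high PAC mouse 3.

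**Figure D5:**
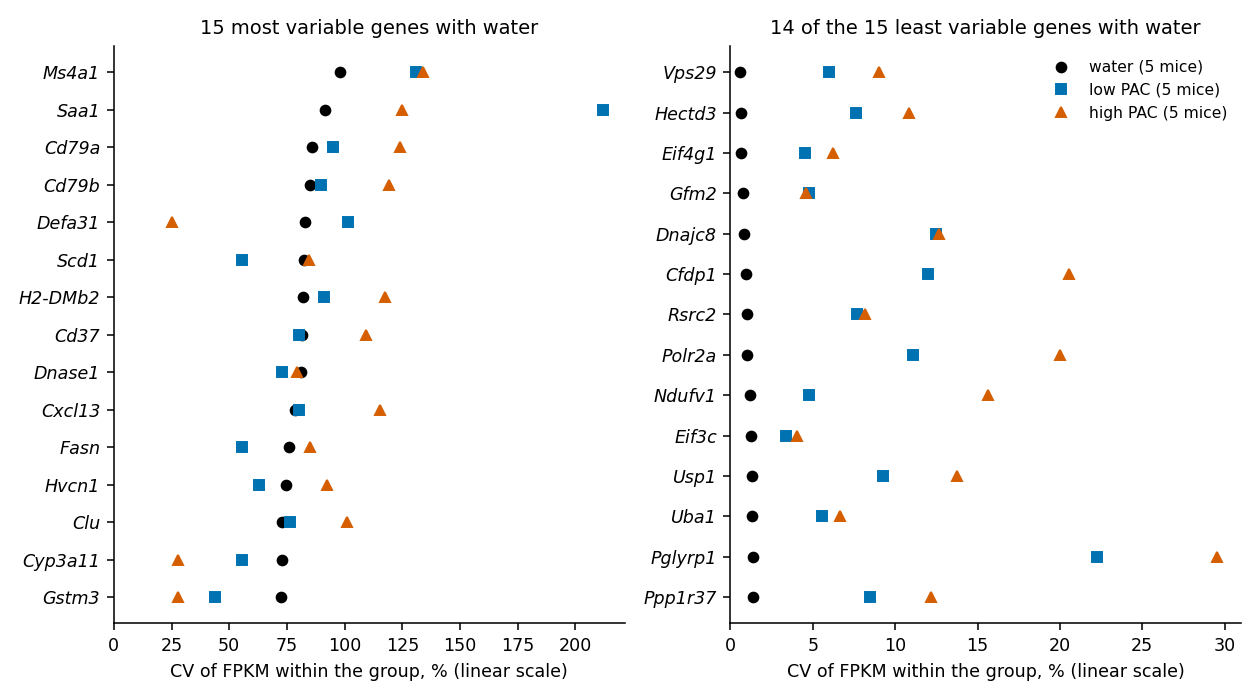
CV of FPKM (linear x axis, percent) within the water, low PAC and high PAC groups of 5 mice each, for the 15 most variable (left) and 14 of the 15 least variable genes (right) of the water group. Cd79b is at 84.8% or more in all 3 groups, as are Ms4a1 and Cd79a. The genes at the right were chosen for their low CV with water, so that their higher values with PAC follow from the choice.

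Promoters were compared as a last feature, from RefSeq windows that reach from 250 bases before to 50 after a gene's start (GRCm38.p6). A window was matched to 76 of the 100 most abundant genes, 477 of the most variable and 510 of the least variable set. The letters TATAAA, the core of the TATA box, searched on the strand of the gene, were found in 27.6% of the first, 14.5% of the second and 3.33% of the third, beside 5.13% of the 5031 matched genes averaging 10 FPKM or more and 8.32% of all 32851 windows. Counted only where the motif began 40 to 20 bases before the start, the shares were 13.2%, 7.55% and 1.18%, beside 1.61% and 1.99%. The median number of CpG dinucleotides was 7, 10 and 24 in these sets, beside 22 and 7. Of the 12 alpha-defensin genes with a window, 11 held TATAAA. Promoters of similar sequence, such as those of Defa20 and Defa21 below, count as separate windows in these shares. The shares without this family were not computed. The letters CACGTG, a form of the E-box, searched on both strands, were in 7.76% of the most and 11% of the least variable set (11% of genes at this level, 7.15% of all windows). TTATGTAA, a form of the D-box that Dbp and its relatives bind, was also searched on both strands. It was in only 2 of 477 and 1 of 510 windows (0.417% of genes at this level, 0.938% of all windows). The sets hold 1 window per gene, while all windows can hold several. The 120 bases before the start are given for 5 abundant or variable genes, 3 with the first motif and, beside them, 2 without it, chosen after their sequences were seen: Defa20 (chr8:21509138-21509257), Defa21 (chr8:21025425-21025544), Reg3b (chr6:78370765-78370884), Lyz1 (chr10:117292869-117292988) and Fasn (chr11:120824548-120824667). They are also given for 4 of the least variable, Vps29 (chr5:122354208-122354327), Hectd3 (chr4:116995214-116995333), Eif4g1 (chr16:20672607-20672726) and Polr2a (chr11:69758634-69758753). All are written 5′ to 3′ on the strand of the gene, which is the plus strand except for Lyz1, Fasn and Polr2a, with the first 2 motifs named above in capitals:

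Defa20: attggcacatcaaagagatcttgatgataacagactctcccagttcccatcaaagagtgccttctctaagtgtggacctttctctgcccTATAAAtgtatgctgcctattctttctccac
Defa21: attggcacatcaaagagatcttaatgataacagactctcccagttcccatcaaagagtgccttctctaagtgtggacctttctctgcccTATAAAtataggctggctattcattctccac
Reg3b: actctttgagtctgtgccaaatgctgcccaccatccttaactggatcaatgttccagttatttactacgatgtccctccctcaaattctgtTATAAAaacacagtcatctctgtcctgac
Lyz1: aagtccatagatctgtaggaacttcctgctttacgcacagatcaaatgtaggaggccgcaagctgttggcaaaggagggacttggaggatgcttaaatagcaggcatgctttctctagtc
Fasn: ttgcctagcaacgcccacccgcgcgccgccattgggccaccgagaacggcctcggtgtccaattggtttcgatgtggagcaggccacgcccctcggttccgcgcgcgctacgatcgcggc
Vps29: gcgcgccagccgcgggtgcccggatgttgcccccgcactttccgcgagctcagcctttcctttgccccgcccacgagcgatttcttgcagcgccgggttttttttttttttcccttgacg
Hectd3: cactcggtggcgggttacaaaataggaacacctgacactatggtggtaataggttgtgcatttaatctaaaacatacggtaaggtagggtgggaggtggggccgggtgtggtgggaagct
Eif4g1: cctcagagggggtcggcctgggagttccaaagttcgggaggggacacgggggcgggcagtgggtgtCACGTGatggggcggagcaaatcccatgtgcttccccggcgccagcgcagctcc
Polr2a: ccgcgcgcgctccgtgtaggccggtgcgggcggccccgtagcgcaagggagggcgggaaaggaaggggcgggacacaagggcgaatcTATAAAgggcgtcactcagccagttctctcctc

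The capitals begin 31 bases before the start in Defa20 and Defa21, 29 before it in Reg3b and 33 before it in Polr2a; Polr2a is among the least variable genes. In Eif4g1 the capitals are CACGTG. The stretches of Defa20 and Defa21 hold no CpG, that of Reg3b 1, that of Lyz1 2 and that of Fasn 18, while those of Vps29, Eif4g1 and Polr2a hold 14, 9 and 14, and that of Hectd3 holds 4. Fabp6, Apoa1, Adipoq and Dbp, which are also abundant or variable, have no TATAAA in their windows either, and 1, 3, 0 and 4 CpG in these 120 bases.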

How the data were processed

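RNA of whole ileum from 15 mice was sequenced by the study on a BGISEQ-500 instrument as paired reads of 100 bases, cleaned with SOAPnuke and mapped to mm10 with Bowtie2; the submitters' processing notes also name HISAT and DESeq2. Per the file headers, the authors deposited for each gene and mouse an expected count, an estimate of its fragments that is not normalized, and an FPKM value. The FPKM that the authors deposited equals the count divided by the summed counts and by the listed length less 79.9 to 93.6 bases in the water mice, which raises the values of short transcripts. The lowest value listed is 0.01, and a gene not listed in a mouse was set to 0. Total expected counts were 16402514 to 17903886 per water mouse, with a median counting CV of 2.88% beside a median CV of 7.58%, and 404 of 6178 genes had a CV at or under their counting CV.

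Samples were grouped by their labels. FPKM was averaged over the 5 water mice, and CV was described for genes with a mean of at least 10, the most and least variable 10% forming the 2 sets described. Named genes are the 20 highest means, the 15 highest and 15 lowest CVs, the 4 highest means and 2 highest CVs of a list, all reference and clock genes, and markers of other tissues. The members, lists and rules were chosen with earlier results of these data known. Alternatives were TPM, TMM (edgeR 4.0.16 in R 4.3.3) and upper-quartile scaling, other thresholds, medians, counts, SD of log2 values with pseudocounts of 0.1 and 1, and leaving out each mouse. The computation of the CV ranking was checked on simulated counts, which is no test of these data. Python 3.11.15 with numpy 2.4.6 and pandas 2.3.3 was used. Same-numbered mice of 2 groups were compared by the correlation of their deviations from group means, which averaged 0.114 for water and low PAC and -0.007 for water and high PAC. Gene identifiers matched RefSeq in 17716 of 17752 cases. Lengths of proteins were not used here, and some genes that the rule names are not reported here.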

Additional observations from a re-analysis of the deposited data

Results flagged for a closer look

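With 50 named genes and 55 summed lists of the 5 water mice examined, the highest or lowest mouse stood apart from the other 4, by a gap of more than 0.71 of the whole range, in 3 genes and 3 lists. Chance alone gives about 1 such case in 20 groups that were not chosen by their spread, near the 3 of 55 lists, and that rate does not apply to the 3 genes, which were chosen by their CV in the same mice. Cyp3a11 (57.8 FPKM) and Gstm3 (38.4 FPKM) had a single high value, and both were in mouse 5, which was also the low mouse for the cholesterol synthesis list, at a sum of 626 FPKM. Mouse 2 was the low one for the lipid absorption and apolipoprotein list, at 10891 FPKM, and for the enterocyte list, at 14844 FPKM; the 2 lists share Apoa1, Apoa4, Fabp1 and Fabp2. Without mouse 2 the CV of these sums was 3.77% and 2.00%, in place of 12.8% and 9.70%. Ppp1r37 was low in mouse 4, at 24.8 FPKM, with a CV of 1.38% over the 5 mice and 0.390% without mouse 4.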

How the results depend on the processing

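No paired analysis was possible because the values are descriptions, with no test that a replicate block could enter; not every pair of same-numbered mice deviated together either. The 20 most abundant genes were the same 20 with TPM or medians, 19 with predicted names left out, 19 with counts per listed length (chosen after seeing the data) and 19 to 20 when 1 water mouse was left out, but only 8 were kept with counts not divided by length. The number of genes at the threshold was 3679 at FPKM 20, 8350 with TPM, and 6120 to 6203 without 1 mouse. The median CV was 6.80% with the counting variance subtracted, 9.78% for genes of at least 1 FPKM, 7.29% for those of at least 20 and 7.23% to 7.50% without 1 mouse. The share of the most variable set found again with low PAC was 55.8% with upper-quartile scaling and 56.3% from 1 FPKM, and 49.0% to 52.4% without 1 water mouse. Leaving out 1 low PAC mouse, chosen after seeing the data, gave 43.4% to 52.1%. With high PAC it was 42.6% with upper-quartile scaling, 56.3% from 1 FPKM, 38.3% from 20 FPKM, 43.5% and 43.0% by SD of log2 values with pseudocounts of 0.1 and 1, and 39.2% to 40.6% without 1 water mouse. Leaving out 1 high PAC mouse, chosen after seeing the data, gave 37.5% to 54.2%, the highest without mouse 3. The 18 lists with at least 50% of members in the most variable set numbered 17 to 19 under other measures and 14 to 19 without 1 mouse. With TPM, 0 of 9 stem cell members were in that set, in place of 3 of 6. Of the 15 least variable genes, 3 stayed among the lowest 15 with TMM scaling and 5 with upper-quartile scaling, while 14 of the 15 most variable stayed among the highest 15 with either. Without 1 mouse, 6 to 11 of the most variable stayed among the highest 15 and 11 to 15 in the most variable 10%, the fewest without mouse 4 and without mouse 5 respectively, and 4 to 9 of the least variable among the lowest 15. Among the highest 15 stayed 6 of the most variable from 20 FPKM and 1 from 1 FPKM. With the counting variance subtracted, 0 of the least variable stayed among the lowest 15.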
